A study of Mus musculus with 8 samples.

Results

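The V segments of the antigen receptor loci were examined for the DNA-binding protein CTCF and for Smc3, a subunit of the cohesin ring, in mouse embryonic stem cells. Members were all autosomal entries of the RefSeq table of mm10 (GRCm38.p6) whose symbols begin with Ighv, Igkv, Iglv, Trav, Trbv, Trgv or Trdv. They numbered 526 of 46709 autosomal entries, with 183 in the heavy chain locus (Igh, chromosome 12), 162 in the kappa locus (Igk, chromosome 6) and 3 in the lambda locus (Igl, chromosome 16). A further 130 were T cell receptor alpha segments (Tra, chromosome 14), 6 delta (Trd, which shares the Tra stretch), 35 beta (Trb, chromosome 6) and 7 gamma (Trg, chromosome 13). The table marked 153 of the 526 as pseudogenes. The cells were C59, a clone of the JM8.N4 line homozygous for knock-in alleles that encode FLAG-Halo-CTCF and Rad21-SNAPf-V5, and they were set against wild-type (WT) JM8.N4 cells with neither tag. Both were grown without feeders in serum and LIF and the labels name no treatment other than cross-linking with formaldehyde. Chromatin immunoprecipitation and sequencing (ChIP-seq) gave 1 CTCF and 1 Smc3 peak list per line, without replicates, and C59 against WT therefore carries no test. Peak lists hold no RNA levels, and the stem cell identity of the cells was not tested here.

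A B or T cell builds its receptor gene by joining a V segment to a J segment, in some loci with a D segment between them. The Rag1 and Rag2 proteins cut at recombination signal sequences, which flank V segments on the end that faces J where a segment is read toward J. Trbv31 and part of the Igk segments lie in the opposite orientation. Cohesin extrudes chromatin loops that CTCF can stop, and in lymphocytes such loops bring distant V segments to the D and J segments. In embryonic stem cells the receptor loci are unrearranged.

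CTCF stood within 1 kb of a V segment at 63 of 526 segments in C59 and 71 of 526 in WT. These are 12.0% (9.33 to 15.1) and 13.5% (10.7 to 16.7), with exact 95% Clopper-Pearson intervals that cover counting error only. Among the 14091 other autosomal genes no longer than the longest V segment (1739 bp), the shares were 12.2% in C59 and 14.4% in WT, so V segments as a whole stood near this background. Olfactory receptor genes, another large family of tandem copies, had CTCF at 3.12% of 1249 genes in C59 and 4.24% in WT. Smc3 stood at 7 V segments in C59 (1.33%, 0.537 to 2.72) and 21 in WT (3.99%, 2.49 to 6.04), against 4.61% and 7.85% of other short genes and 0.641% and 1.36% of olfactory receptor genes. Segments without a peak fell short of the deposited cut-off and may still bind the protein. With each list held to its 25734 strongest peaks, 13 V segments had CTCF in C59 and 7 in WT, so these counts depend on list length.

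**Figure D1:**
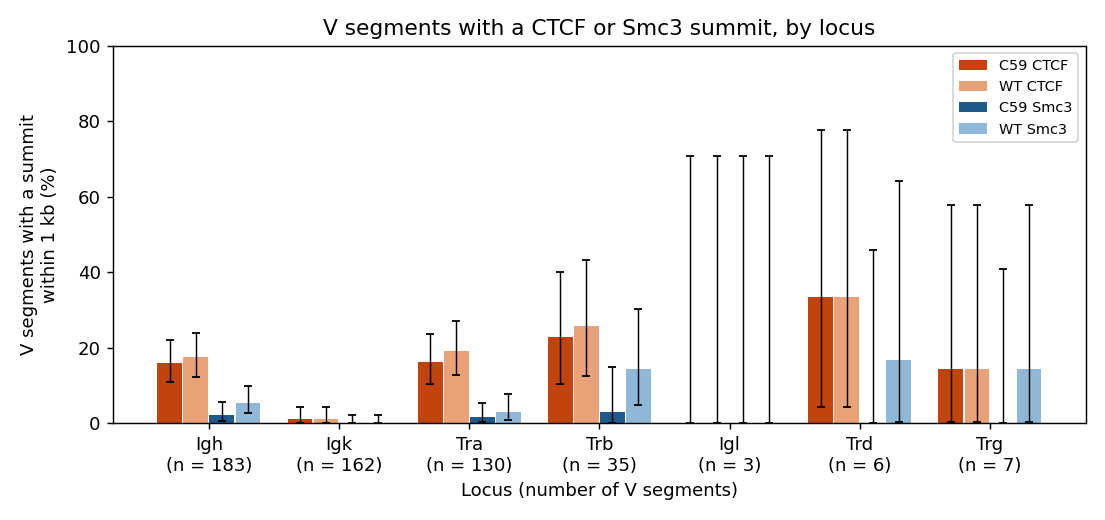
Bars give the percentage of V segments in each locus with a summit within 1 kb in each of the 4 lists, and whiskers the exact 95% Clopper-Pearson interval. Igh, Tra and Trb segments carry CTCF at 15.8% to 25.7%, Igk segments at 1.23% in both lines, and Igl, Trd and Trg have at most 7 segments each.

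CTCF at V segments differed from locus to locus in the same way in both lines. CTCF stood at 29 Igh segments in C59 and 32 in WT, at 21 and 25 Tra segments, at 8 and 9 Trb segments and at 2 and 2 Igk segments. For Igh these are 15.8% (10.9 to 22.0) in C59 and 17.5% (12.3 to 23.8) in WT, and for Tra 16.2% (10.3 to 23.6) and 19.2% (12.8 to 27.1). Igk had 1.23% (0.150 to 4.39) in each line, with an interval below those of Igh and Tra. Trdv1 and Trdv3 in the delta locus and Trgv7 in the gamma locus had CTCF in both lines, and none of the 3 Igl segments had it in either. Each V segment with CTCF had its own strongest peak, so the counts of segments are also counts of different peaks. Within 500 bp, 54 segments had CTCF in C59 and 62 in WT, and within 2500 bp 99 and 114. At the edge of the window, the Ighv1-65 summit lay 996 bp from the segment in C59 and 1013 bp in WT, and the next segment outside in C59 was Ighv1-86 at 1087 bp.

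Over the 6 stretches of chromosome that hold the V segments, with 100 kb on either side, CTCF was sparser than over the rest of the autosomes. There were 199 CTCF peaks in C59 and 236 in WT over 9512 kb. This is 20.9 per Mb in C59 and 24.8 per Mb in WT, against 33.5 and 40.2 per Mb over the remaining span of the autosomes. Smc3 peaks numbered 36 in C59 and 90 in WT, or 3.78 and 9.46 per Mb, against 10.6 and 19.4 elsewhere. Fold enrichment, the authors' ratio of pileup to local background, describes strength within a list. Its median at CTCF peaks of the loci was 11.0 in C59, where other autosomal peaks had 11.2, and 10.5 in WT, where they had 9.50. The local background that pileup and fold imply at these peaks was lower than elsewhere, with medians of 3.57 against 4.00 in C59 and 4.27 against 5.22 in WT, and its part in the counts was not tested.

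In the heavy chain locus more than 50% of the CTCF summits in each line lay next to V segments, mostly in the part of the array nearest J. Of the CTCF summits between the first and last Ighv segment, 29 of 48 in C59 (60.4%, 45.3 to 74.2) and 32 of 59 in WT (54.2%, 40.8 to 67.3) lay within 1 kb of a segment. Only 17.1% of that stretch is within 1 kb of a V segment. The strongest WT peaks among segments with CTCF in both lines stood at Ighv5-17 (chr12:113859149-113859442), Ighv5-2 (chr12:113578504-113578990) and Ighv2-9 (chr12:113879097-113879388). Ighv5-17 had a fold of 29.1 in C59 and 27.0 in WT. Ighv5-2 had 20.9 in C59 and 22.8 in WT, and Ighv2-9 had 25.1 and 22.8. Ighv12-3 tied with both in WT, with 23.6 in C59 and 22.8 in WT. All 4 stand in the part of the array nearest J and were strong in both lines. The strongest C59 peak of the whole Igh stretch was at Ighv7-4 (chr12:114222788-114223254), with 31.2 in C59 and 19.1 in WT. The strongest WT peak of the stretch by fold (32.5) lay in the distal flank, 18339 bp beyond Ighv1-86. C59 had a peak there too, with a fold of 18.3. By pileup this distal peak was above the one at Ighv7-4 in both lines, with 145 against 141 in C59 and 170 against 151 in WT.

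CTCF followed V family and position along the Igh locus. The Ighv1 family (J558), the largest with 92 segments, had CTCF at 4 segments in C59 (4.35%, 1.20 to 10.8) and 3 in WT (3.26%, 0.678 to 9.23). The 16 Ighv8 segments had it at 1 in each line. The remaining families hold 75 segments and had CTCF at 24 in C59 (32.0%, 21.7 to 43.8) and 28 in WT (37.3%, 26.4 to 49.3). Among them, Ighv2 (Q52) had it at 5 of 11 segments in C59 and 6 in WT, Ighv5 at 6 and 7 of 21, Ighv7 at 3 and 3 of 4, and Ighv6 at 3 and 3 of 7. Both Ighv4 and both Ighv11 segments had CTCF in both lines. The 4 Ighv9 and 4 Ighv14 segments had none. Family and position cannot be told apart in this array. The array was cut at the end of the last of these 75 segments, so all lie in the J-proximal part by construction. The split by position therefore largely repeats the split by family. The J-proximal part spans 992 kb and holds 85 V segments, 8 of them Ighv1. CTCF stood there at 25 segments in C59 (29.4%) and 29 in WT (34.1%). In the J-distal 1445 kb, with 98 segments of which 84 are Ighv1, it stood at 4 in C59 (4.08%) and 3 in WT (3.06%). CTCF peaks were not missing from the distal part, with 18 in C59 and 23 in WT, or 12.5 and 15.9 per Mb against 30.2 and 36.3 in the proximal part. Their summits lay at a median of 3115 bp (C59) and 3048 bp (WT) from the nearest V segment, against 70.5 bp and 73.5 bp in the proximal part. The widest interval without CTCF, 208 kb in C59 with 13 V segments and 201 kb in WT with 12, also lay in the distal part. Many Ighv1 segments are close copies of each other, and no source used here says how reads that fit several places were treated. The part of read placement in the low count was not tested.

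**Figure D2:**
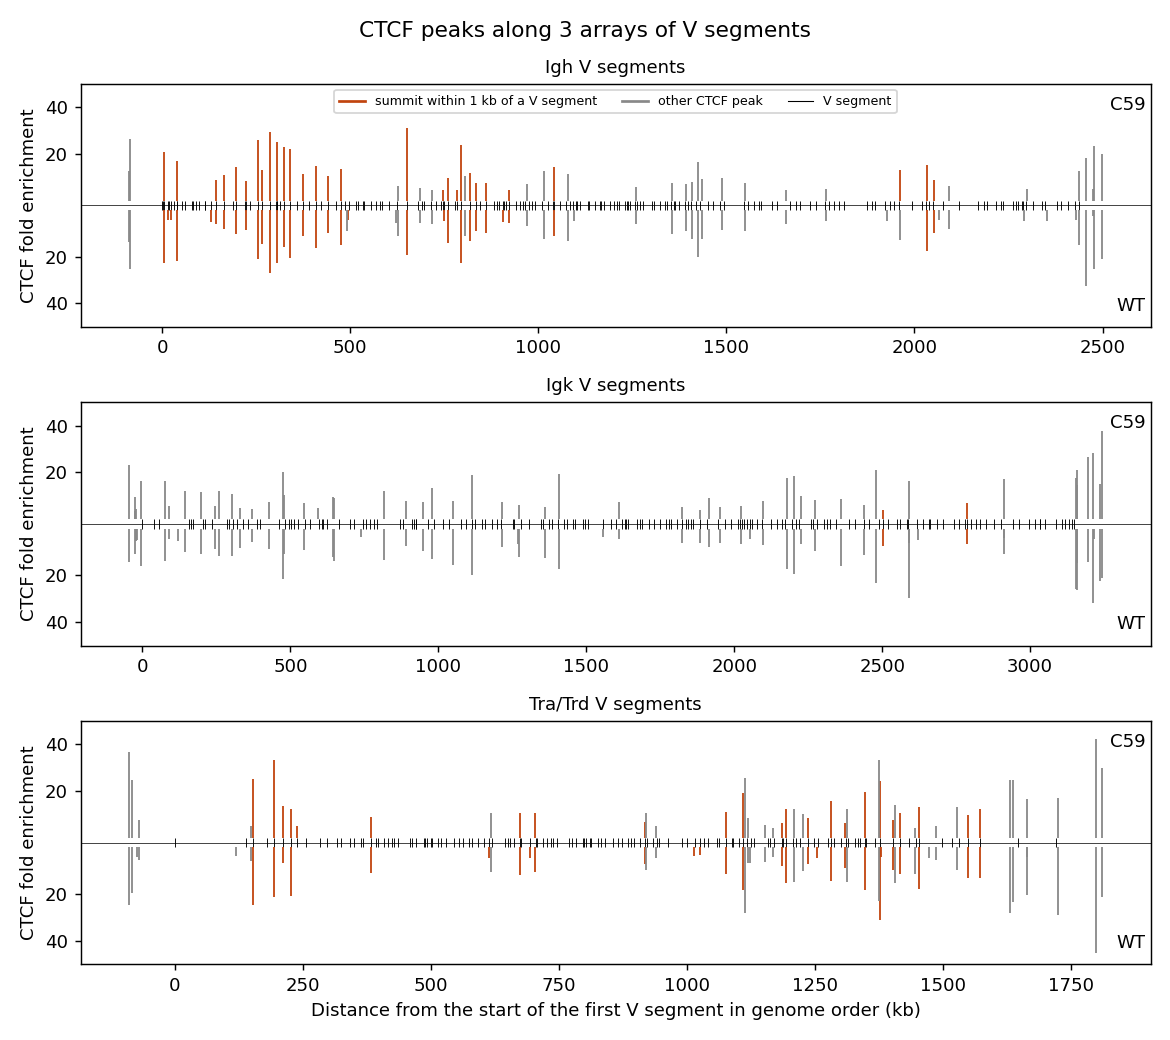
CTCF peaks along the Igh, Igk and Tra/Trd arrays, with C59 drawn above and WT below the line, the length of a line giving the authors' fold enrichment, the x axis the distance in kb from the first V segment in genome order, and short black ticks the V segments. Red peaks have a summit within 1 kb of a V segment: in Igh they fill the first 992 kb, on the side of the J segments, and in Igk nearly all peaks are grey.

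The share with CTCF was larger among segments not marked as pseudogenes than among those so marked. The groups were not matched for locus, family or position. Over all loci the counts were 51 of 373 unmarked segments in C59 (13.7%, 10.4 to 17.6) and 61 in WT (16.4%, 12.7 to 20.5). Of 153 pseudogenes, 12 had CTCF in C59 (7.84%, 4.12 to 13.3) and 10 in WT (6.54%, 3.18 to 11.7). The intervals overlap in C59 and not in WT. In Igh alone, 23 of 120 unmarked segments in C59 and 28 in WT had CTCF, against 6 and 4 of 63 pseudogenes.

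The side of the segment on which its strongest CTCF summit stood differed between the loci, in the same way in both lines. In Igh, 25 of 29 summits in C59 and 27 of 32 in WT lay beyond the end that faces the J segments, where the recombination signal sits. Their median distance from that end was 63 bp in C59 and 70 bp in WT, and 24 and 25 of them lay within 200 bp. On the other side stood Ighv1-65, Ighv1-67 and Ighv1-69 in C59, at 996, 932 and 842 bp, and in WT Ighv1-67 and Ighv1-69, at 970 and 846 bp. Summits inside a segment numbered 1 in C59 and 3 in WT. In Tra, the strongest summit of all 21 segments with CTCF in C59 and all 25 in WT lay beyond the opposite end, the one that faces away from J. Trav17 had a second, weaker WT summit inside the segment (4.30). There the median distance was 190 bp in C59 and 198 bp in WT, with 20 and 22 summits within 300 bp. Trav segments are read toward J, so this is the side of the V promoter. Trb had summits on both sides, with 6 of 8 summits in C59 and 7 of 9 in WT on the side away from J, at medians of 534.5 bp and 511 bp. Summits of the lines differed in place by a median of 8 bp over the 59 segments with CTCF in both.

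**Figure D3:**
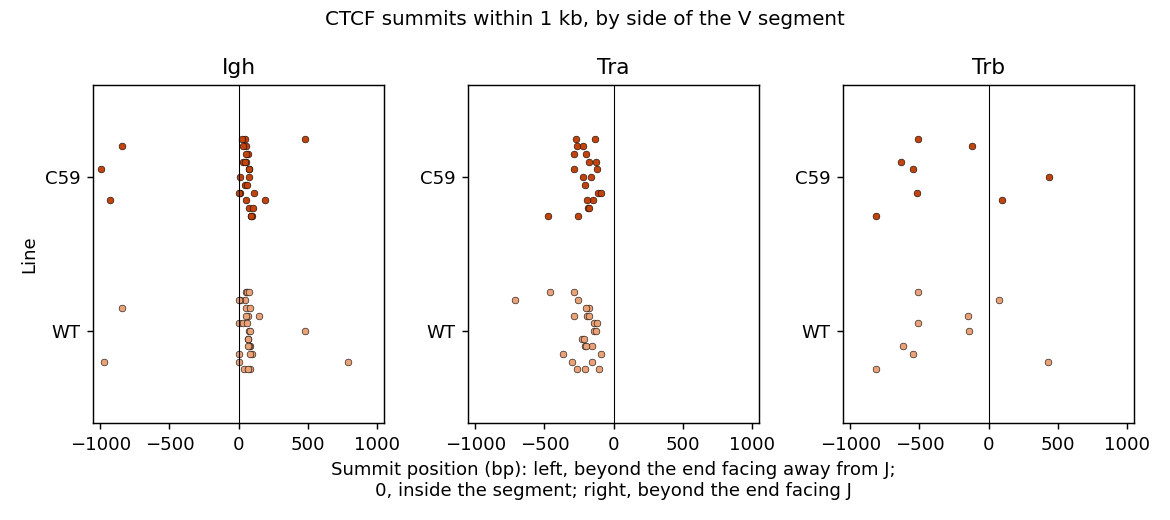
Each point is the strongest CTCF summit of 1 V segment, placed by its distance in bp beyond the end that faces J (right of 0) or beyond the opposite end (left of 0), for C59 (upper row) and WT (lower row), with vertical scatter only to separate points. Most Igh points gather just right of 0, and all Tra points lie left of 0.

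Along the alpha and delta array, 23 of 42 CTCF summits in C59 (54.8%, 38.7 to 70.2) and 28 of 51 in WT (54.9%, 40.3 to 68.9) lay within 1 kb of a V segment, where 19.5% of the stretch lies. Trav17 (chr14:53806639-53807115) had a fold of 24.4 in C59 and 31.1 in WT. Trav3-1 (chr14:52580762-52581213) had 25.1 in C59 and 24.5 in WT. Trav5-1 (chr14:52622566-52623082) had 33.3 in C59 and 21.4 in WT. These 3 stood among the strongest sites of the array, and their order differed between the lines. In the delta group, Trdv1 (chr14:53881612-53882217) had 13.3 in C59 and 17.7 in WT, and the pseudogene Trdv3 (chr14:54000948-54001253) had 12.3 and 13.3. The strongest peak of the stretch was no V site. It lay at chr14:54227508-54228856 in C59 (42.2) and chr14:54227452-54228928 in WT (45.2), beyond the last alpha constant segment, which ends at 54224198. Smc3 was also at its strongest there, with 12.5 in C59 and 22.1 in WT.

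The Tra array of the mm10 reference holds repeated blocks, whose segments carry d or n directly after the family number. Segments without a letter in that place had CTCF at 17 of 56 in C59 (30.4%, 18.8 to 44.1) and 19 in WT (33.9%, 21.8 to 47.8). The d copies had it at 1 of 40 in C59 and 2 in WT, and the n copies at 3 of 34 and 4. The Trav10 trio has 1 segment of each kind, but it is not typical of them. Trav10d was the only d copy with CTCF in C59. The 3 n copies with CTCF in C59 were Trav9n-1, Trav6n-6 and Trav8n-2, with folds of 10.54, 10.75 and 6.96. Trav10 had a fold of 11.0 in C59 and 11.6 in WT, Trav10d had 9.07 and 11.0, and Trav10n had no peak in C59 and 4.37 in WT. The widest interval between neighbouring CTCF summits in the array was 235 kb in C59 with 27 V segments and 231 kb in WT with 26. It reached from Trav10d to Trav8d-2 in C59 and to Trav13d-3 in WT. Trav10d counts among these segments, though the summit at the edge of the interval lay 149 bp (C59) and 142 bp (WT) from it. Blocks of close copies share reads, and the part of read placement in these counts was not tested.

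In the beta locus the strongest V site was Trbv12-1 in C59 and Trbv12-2 in WT. Trbv12-1 (chr6:41113567-41114067) had a fold of 45.3 in C59 and 21.5 in WT. Trbv12-2 (chr6:41118864-41119364) had 15.4 in C59 and 29.8 in WT. The pileups were less far apart, with 206 in C59 and 207 in WT at Trbv12-1, and 168 in C59 and 165 in WT at Trbv12-2. The C59 pileups are not whole numbers as those of WT are, so their scale may differ. The local background that pileup and fold imply was 3.56 in C59 and 8.70 in WT at Trbv12-1. At Trbv12-2 it was 10.00 in C59 and 4.56 in WT. This background is computed from the pileup and the fold, so it is no separate measure of why the folds differ. The 2 are members of 1 family, and the part of read placement was not tested. Trbv2 (chr6:41047556-41047995) had 24.5 in C59 and 22.8 in WT. Trbv3 next to it had a peak in WT alone (4.56). In this locus 8 of 22 summits in C59 and 9 of 22 in WT lay within 1 kb of a V segment, where 12.3% of the stretch lies. A further strong site lay 1575 bp (C59) and 1560 bp (WT) from Trbv14, with folds of 35.4 in C59 and 29.9 in WT, and it held the strongest Smc3 peak of the stretch in both lines (6.68 in C59 and 8.65 in WT). The widest interval without CTCF, 233 kb in both lines, held Trbv30 alone.

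In the kappa locus few CTCF summits lay at V segments. Of 44 CTCF summits between the first and last Igkv segment in C59 and 51 in WT, 2 in each line lay within 1 kb of a segment (4.55%, 0.555 to 15.5, and 3.92%, 0.478 to 13.5). The reach of the segments covers 12.8% of this 3149 kb stretch, which lies inside both intervals. The 2 segments were Igkv7-33, with a fold of 4.01 in C59 and 7.60 in WT, and Igkv8-19, with 6.75 and 6.65. All families with 8 or more members other than Igkv8, among them Igkv4 with 33, had CTCF at none. The strongest CTCF summit inside the array by fold lay 10231 bp from Igkv8-34 in C59 (21.1) and 3024 bp from Igkv8-28 in WT (29.6). The site near Igkv8-34 had a fold of 23.2 in WT, and the one near Igkv8-28 had 16.6 in C59. The strongest Smc3 peak of the stretch lay inside the array too, 5910 bp (C59) and 5908 bp (WT) from Igkv17-121, with folds of 11.2 in C59 and 14.3 in WT. The strongest CTCF peaks by fold lay in the flank on the J side, at chr6:70797585-70798486 in C59 (37.6) and at chr6:70768509-70769309 in WT (31.8). Both places had a peak in both lines, the first with a fold of 20.9 in WT and the second with 28.4 in C59. By pileup the second was the higher in both lines, with 226 against 196 in C59 and 252 against 220 in WT. In both lines the widest interval without CTCF, 213 kb with 15 segments, reached from Igkv13-74-1 to Igkv4-63.

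At the J end of the kappa array, 3 CTCF peaks stood in each line in the 18.4 kb between the last V segment and Igkj1. This interval is known to hold Cer and Sis, regulatory elements that bind CTCF. The peak nearest Igkj1, 8170 bp away in C59 (chr6:70713703-70714781) and 8148 bp in WT (chr6:70713712-70714736), had folds of 21.2 in C59 and 26.4 in WT. The next had 14.5 in C59 and 14.6 in WT, and the one nearest the V segments 17.5 and 25.7. Smc3 stood at 2 of the 3 in C59 (folds of 5.88 nearest Igkj1 and 3.86 nearest the V segments) and at all 3 in WT (7.76, 5.43 and 8.70).

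The heavy chain locus had a similar pair of sites on the J side of its V segments. In the 317 kb from the Igha constant segment to the first V segment, each of the 4 lists had 2 peaks, and they stood in the same 2 places. The nearer lay 3105 bp (C59) and 3055 bp (WT) from the D segment Ighd1-1 by CTCF summit, with CTCF folds of 12.4 in C59 and 13.7 in WT and Smc3 folds of 5.46 and 8.33. The farther, chr12:113487649-113488219 in C59 and chr12:113487648-113488244 in WT, lay 5690 bp and 5713 bp away, with CTCF folds of 26.3 and 25.1. It held the strongest Smc3 peak of the Igh stretch in both lines, with 8.17 in C59 and 9.50 in WT. The stretch upstream of this D segment is known as the intergenic control region IGCR1, which binds CTCF and keeps V segments from joining out of order.

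Of the 46 promoters that the RefSeq sequence table holds for these 6 stretches, none belongs to a V segment, and 1 lay under a CTCF peak of both lines. It is the promoter of Rpia, the gene of ribose 5-phosphate isomerase in the flank of Igk on the J side, and it is shown because it is the CTCF-bound gene start that borders this array. The CTCF summits lay 8 bp (C59) and 4 bp (WT) beyond its downstream edge, with folds of 15.0 in C59 and 22.4 in WT and no Smc3 peak overlapping it in either line. The 300 bases at chr6:70792126-70792425 (GRCm38.p6, minus strand, 250 before to 50 after the gene start) read 5′ to 3′ as follows, with the 227 bases under both CTCF peaks in capitals.
Rpia promoter: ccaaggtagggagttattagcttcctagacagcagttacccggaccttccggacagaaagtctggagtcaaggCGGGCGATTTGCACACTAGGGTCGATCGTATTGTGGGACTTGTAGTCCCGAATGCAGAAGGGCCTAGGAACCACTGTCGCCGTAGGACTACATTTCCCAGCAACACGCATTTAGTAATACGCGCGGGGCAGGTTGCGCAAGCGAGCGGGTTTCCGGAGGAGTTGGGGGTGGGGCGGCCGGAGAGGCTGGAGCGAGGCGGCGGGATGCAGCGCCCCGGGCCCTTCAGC
On either strand it holds no match to the core of the CTCF motif, which 2.43% of all 32851 promoters of the table hold. It also lacks the octamer ATGCAAAT (1.74% of promoters) that B cell octamer factors bind in V promoters, and the recombination heptamer CACAGTG (6.81%).

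The lambda and gamma loci are small. Between the 3 Iglv segments the strongest CTCF peak lay 61365 bp (C59) and 61286 bp (WT) from Iglv1, with folds of 19.8 in C59 and 21.8 in WT. A stronger one stood in the flank, 81894 bp (C59) and 81909 bp (WT) from Iglv1, with CTCF folds of 22.6 in C59 and 27.2 in WT and Smc3 folds of 6.48 and 10.7. In Trg, Trgv7 (chr13:19178042-19178492) had CTCF folds of 13.1 in C59 and 18.9 in WT. The strongest gamma peak, chr13:19364226-19366215 in C59 (33.5) and chr13:19364160-19366205 in WT (32.0), lay 25337 bp (C59) and 25329 bp (WT) beyond Trgv1, outside the array. The strongest Smc3 peaks of the stretch overlapped it at different places. In C59 the summit lay at 19365784 (6.86), where the overlapping WT peak had 7.43. In WT it lay at 19364696 (12.2), where the overlapping C59 peak had 5.19.

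Of the V segments with CTCF, 7 of 63 had Smc3 in C59 (11.1%, 4.59 to 21.6) and 21 of 71 in WT (29.6%, 19.3 to 41.6). These count summits within 1 kb of a segment. By overlap of peaks, 7 of 62 CTCF peaks in C59 (11.3%) and 20 of 71 in WT (28.2%) lay on Smc3. This takes CTCF summits within 1 kb of a V segment, between the first and last segment of each array. Of CTCF peaks on the autosomes outside the loci, 30.4% in C59 and 44.4% in WT overlapped Smc3, without matching for fold. No V segment had Smc3 without CTCF, and elsewhere on the autosomes 97.9% of Smc3 peaks in C59 and 95.1% in WT also lay on CTCF. Those with Smc3 had the stronger CTCF, with median CTCF folds of 20.9 against 11.2 in C59 and 19.1 against 9.40 in WT. In Igh, Smc3 stood at 4 segments in C59 and 10 in WT, in Trb at 1 and 5, in Tra at 2 and 4, and in Igk at none. Ighv5-2 had Smc3 folds of 4.62 in C59 and 5.81 in WT, Ighv2-3 had 4.28 and 5.43, and Ighv7-4 had 4.45 and 4.90. Trav17 (4.28 in C59 and 6.17 in WT), Trav3-4 (4.78 and 5.81) and the pseudogene Trbv29 (3.77 and 5.15) completed the 6 segments with Smc3 in both lines. Ighv2-9 had it in C59 alone (4.11). Segments with Smc3 in WT alone numbered 15, among them Ighv5-17 (5.43), Ighv12-3 (4.46), Trav12-1 (4.65), Trav3-1 (4.07), Trdv1 (2.95), Trbv12-2 (5.87), Trbv10 (5.62) and Trgv7 (7.06). All V site folds of Smc3 were between 3.77 and 4.78 in C59 and between 2.95 and 7.06 in WT. At a −log10 q of at least 10, 0 V segments had Smc3 in C59 and 11 in WT.

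Over all stretches together, 17.6% of CTCF peaks in C59 (12.6 to 23.6) and 37.3% in WT (31.1 to 43.8) overlapped Smc3. Other autosomal CTCF peaks of the same fold deciles gave 24.3% and 45.0%, both above these intervals. By stretch, the share in WT was lower in Igh and Tra/Trd than among such other autosomal peaks. In Igh, 6 of 55 CTCF peaks overlapped Smc3 in C59 (10.9%, 4.11 to 22.2) and 16 of 66 in WT (24.2%, 14.5 to 36.4). Other autosomal peaks gave 21.8% and 42.3% at the same distribution of fold, the first inside and the second outside its interval. In Tra/Trd the shares were 22.9% in C59 (12.0 to 37.3) and 29.3% in WT (18.1 to 42.7), with 26.5% and 46.8% elsewhere. Igk had 10.7% in C59 (4.03 to 21.9) and 47.7% in WT (35.1 to 60.5), with 19.5% and 41.6% elsewhere, both inside the intervals. In the distal part of the Igh array, 0 of 18 CTCF peaks in C59 and 3 of 23 in WT overlapped Smc3. In the proximal part 4 of 30 and 9 of 36 did. The distal CTCF peaks were weaker, with median folds of 8.38 in C59 and 8.93 in WT, against 11.1 and 10.3. No share at the same fold was computed for these parts, so the role of CTCF strength was not tested. Conversely, 36 of 36 Smc3 peaks of the stretches in C59 and 89 of 90 in WT overlapped CTCF, near the shares elsewhere. Asking for 50% of both peaks lowered these shares to 55.6% and 68.9%.

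**Figure D4:**
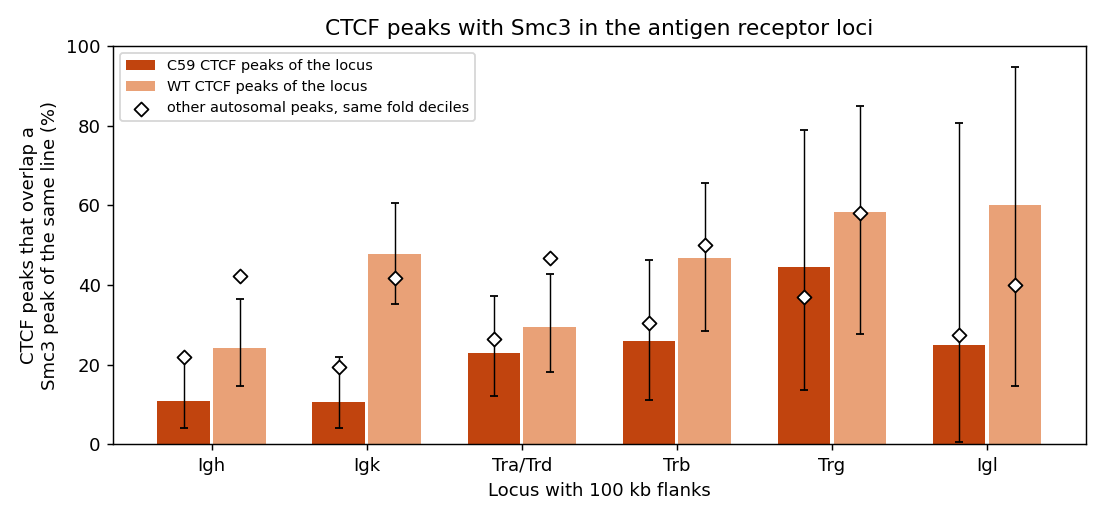
Bars give the percentage of CTCF peaks in each locus, with 100 kb flanks, that overlap a Smc3 peak of the same line, with exact 95% Clopper-Pearson intervals, and diamonds the share among other autosomal CTCF peaks weighted to the same fold deciles. In WT the diamond lies above the interval for Igh and Tra/Trd and within it for the other loci.

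The tagged and wild-type lines had CTCF at largely the same V segments. CTCF stood in both lines at 59, in C59 alone at 4 and in WT alone at 12. The 59 had median folds of 12.4 in C59 and 13.3 in WT, and the C59 fold was the higher at 27 of them. Segments of 1 line alone were weak, with medians of 4.96 for C59 alone and 4.46 for WT alone. Those of C59 alone included Ighv1-65 (13.3), where the WT peak overlapped it and its summit fell outside the window, Ighv5-21 (4.64) and Trav6-2 (5.27). Those of WT alone included Ighv5-12 (5.32), Ighv10-1 (5.13), Trav8d-2 (4.75) and Trav4-4-dv10 (4.75). Over the stretches, 193 of 199 CTCF peaks of C59 (97.0%, 93.6 to 98.9) overlapped a WT peak, against 97.1% elsewhere. In the other direction 193 of 236 WT peaks (81.8%, 76.3 to 86.5) were found in C59, against 79.9% elsewhere, or 84.5% at the same fold. WT peaks not found in C59 had a median fold of 4.37, and the strongest of them 9.16, in Igh.

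Of the 4 stretches with more than 10 WT Smc3 peaks, the kappa locus had the smallest share found again in C59. In Igk 6 of 31 were found (19.4%, 7.45 to 37.5), in Igh 5 of 16 (31.3%), in Trb 7 of 14 (50.0%) and in Tra/Trd 11 of 18 (61.1%, 35.7 to 82.7). The intervals of Igk and Tra/Trd overlap. Over all stretches 35 of 90 were found (38.9%, 28.8 to 49.7), against 53.3% elsewhere and 48.6% at the same fold, which lies inside the interval. By stretch, the shares at the same fold were 37.7% for Igk, 41.9% for Igh, 48.3% for Trb and 58.5% for Tra/Trd. They rank the 4 stretches in the same order as the shares found. The value for Igk lay just outside its interval. In the other direction 35 of 36 C59 Smc3 peaks overlapped a WT peak, against 98.1% elsewhere. Under equal list lengths, 74.3% of WT Smc3 peaks of the stretches were found. With 1 library per line, a difference of the lines and a difference of the libraries cannot be told apart.

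The D, J and constant segments had no summit within 1 kb. None of the 139 had a CTCF or Smc3 summit there in either line. The entry Tcrg was planned as a member and is not among the 139. It spans 178435 bp of the gamma locus and held summits of all 4 lists. Some constant segments, such as Ighd with 8790 bp, are longer than the short genes used for comparison. Among other short autosomal genes 12.2% in C59 and 14.4% in WT had CTCF, and 4.61% and 7.85% had Smc3. The 139 stand in a few tight clusters, with 60 J segments of Tra between 54155005 and 54218842 on chromosome 14, so they are not independent places. The nearest CTCF summit was 1953 bp (C59) and 1947 bp (WT) away, in Tra. Of 12 genes for the recombination and end-joining machinery, 4 had CTCF within 1 kb of a gene end in both lines. By the same rule 34.3% of autosomal protein-coding genes in C59 and 39.9% in WT had CTCF (24.3% and 28.3% of all autosomal entries), so 4 of 12 is near the background. Nhej1, an end-joining factor, had 28.0 in C59 and 20.2 in WT, and Xrcc6, which encodes Ku70, had 20.5 and 22.9. Xrcc5, which encodes Ku80, had 16.4 in C59 and 21.0 in WT, and Hmgb1, a DNA-bending cofactor of Rag cleavage, had 3.59 and 3.77. Smc3 stood at Nhej1 (4.20 in C59 and 4.32 in WT) and Xrcc6 (3.03 and 3.58) in both lines, and at Xrcc5 in WT alone (4.29), where 11.8% of autosomal protein-coding genes in C59 and 21.9% in WT had it (8.54% and 15.5% of all autosomal entries). Rag1, Rag2 and Dntt, which adds bases at the joints, had neither protein at their ends, nor had Prkdc, Dclre1c, Lig4, Xrcc4 or Hmgb2. The CTCF summit nearest to Rag1 was 3467 bp (C59) and 3466 bp (WT) from a gene end.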

How the data were processed

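Per the labels' protocols, chromatin of JM8.N4 cells was cross-linked, sonicated and sequenced as single-end reads. Peak lists of 4 of the 8 libraries were used and the others, input and IgG, were not used here. The extraction protocol names a Rad21 antibody, while the antibody label of the libraries names Smc3, which was followed. The submitters' processing notes name Bowtie 0.12.8, MACS2 2.1.0.20140616 and mm10, with no role given. Control, threshold and treatment of reads that fit several places are not given in the sources used here. The authors deposited for each peak a pileup signal, a p-value and q-value on a linear scale and a fold enrichment ratio. Read totals are not in the lists, so depth is unknown and list length limits every count.

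Members and lists were chosen with earlier results of these data known. A segment was called when a summit lay within 1 kb of it, and the strongest such peak gave its fold. Peaks were shared at an overlap of at least 1 bp. Shares at the same fold weight the 10 fold deciles of a list. Autosomal span ran from the first to the last peak of each chromosome. The J-facing end was set from the positions of the J segments. Named segments are, per locus and protein, the up to 3 strongest WT sites of both lines and up to 2 of each line alone. The strongest peaks and widest intervals of each locus were also named. Added after values were seen were Ighv12-3, the Trav10 trio, the site near Trbv14, the strongest peaks inside the Igk and Igl arrays, the intervals between V and J segments, and the splits of Igh, of the Tra copies and by pseudogene. RefSeq rows on unplaced or alternate scaffolds were left out, as were 21 V segment rows without these symbols. No test between lines was possible with 1 library each. Overlap code was tested on simulated data. Python 3.11.15, numpy 2.4.6, pandas 2.3.3, scipy 1.17.1 and matplotlib 3.10.9 were used.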

Additional observations from a re-analysis of the deposited data

How the results depend on the processing

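Of 56 recomputed values, 30 stayed close to those reported. At 2500 bp, 99 V segments had CTCF in C59 and 114 in WT, and 14 had Smc3 in C59. At a −log10 q of at least 10, Smc3 stood at 0 V segments in C59 and 11 in WT, with 15 and 55 Smc3 peaks in the loci. There 88.3% of WT CTCF, 100% of C59 Smc3 and 27.3% of WT Smc3 peaks were found in the other line, and 100% of WT Smc3 peaks lay on CTCF. With equal numbers of peaks, 13 segments had CTCF in C59, 7 in WT, and 2 had Smc3 in WT. The loci then held 42 (C59) and 34 (WT) CTCF and 35 WT Smc3 peaks. The shares found were 76.2% (C59) and 94.1% (WT) for CTCF and 72.2% and 74.3% for Smc3, and Smc3 lay on CTCF at 55.6% (C59) and 65.7% (WT). Lists cut to 1 length hold fewer peaks by construction. Without flanks there were 22 C59 Smc3 peaks. With an overlap of 50% of both peaks, 55.6% (C59) and 68.9% (WT) of Smc3 peaks lay on CTCF. A window of 500 bp and leaving out pseudogenes moved no count by over 1.5 times. No paired analysis was possible because each line gave 1 library per protein.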
